A study of Mus musculus with 10 samples.

Results

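The clustered protocadherins are 58 of the 29883 genes in the count table of the mouse nucleus accumbens (NAc), a part of the ventral striatum. They were defined by symbol, as every gene whose Ensembl identifier belongs to a symbol beginning with Pcdha, Pcdhb, Pcdhga, Pcdhgb or Pcdhgc and followed by a digit or a c. That choice was made with earlier results of these data known. The alpha cluster had 14 members in the table, the beta cluster 22 and the gamma cluster 22. Of 59 such symbols in the annotation, Pcdha4b is not analysed here. RNA was sequenced from the NAc of 5 C57BL/6J (B6) and 5 DBA/2J (D2) mice, which were males of 9 weeks that had received no ethanol, with 1 poly-A library per mouse. B6 and D2 are inbred strains with different responses to ethanol. Each strain is a single inbred line, so a difference between them is a difference between the 2 lines as a whole, and no agent was given to either group.

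Clustered protocadherins are adhesion proteins of the neuronal surface that bind the same protein on a neighbouring membrane, and the set that a neuron makes lets its branches recognise one another. Each alpha or gamma transcript joins a variable first exon with its own promoter to the constant exons of its cluster, while most beta genes are a single coding exon. In most neurons the alternate promoters are switched on in small random sets through DNA methylation, the insulator protein CTCF and cohesin loops, and the C-type members at the end of the alpha and gamma clusters are used more uniformly.

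In GRCm39 the 3 clusters follow each other on the forward strand of chromosome 18. The alpha cluster lies from 37063237 to 37320716, the beta cluster from 37397991 to 37657532 and the gamma cluster from 37794846 to 37975014. Alpha and gamma gene models share their constant exons, so a level per length was computed over the exon bases that no other gene on the same strand covers, which for these members is mainly the variable exon. Those bases run from 494 to 4641 per alpha member, from 2588 to 8695 per beta member and from 1570 to 4662 per gamma member.

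Depth was high and alike, with 96977262 to 116776714 counted reads per mouse. Values below are CPM after TMM normalization, reads scaled to the size of the library, with the SD over the 5 mice of a strain beside a mean, and a gene was called when edgeR's quasi-likelihood test gave an adjusted p (Benjamini-Hochberg, over all genes) below 0.05. The libraries differed in markers of other cells. The summed level of 9 markers of cortical projection neurons was 1002 CPM in B6 replicate 3 and 1019 CPM in B6 replicate 5, against 157 to 240 CPM in the other 3 B6 mice and 310 to 675 CPM in the D2 mice, and 0 of the 9 were called by edgeR or DESeq2 (1 at an unadjusted p below 0.05). All 10 striatal markers were detected in every mouse, with sums of 4888 to 6272 CPM in B6 and 4121 to 4988 CPM in D2. Of these 10, 6 were lower in D2, Drd2 and Penk among them. The other 4 were not called: Drd1, Tac1, Pdyn and Ppp1r1b, at log2 fold changes of -0.06, -0.02, 0.01 and -0.23. Of 6 oligodendrocyte markers, 4 were lower in D2, with sums of 4293 to 6202 CPM in B6 and 3242 to 4734 CPM in D2. Of all genes 9.83% were lower in D2, and of those with a mean count of 100 or more 13.2% were. In tissue RNA, fewer cells of a type and less RNA per cell cannot be told apart.

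Both strains were aligned to the genome of C57BL/6J. Reads with D2 alleles align less easily to it, and the part of this in any difference below was not tested.

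The calls were spread unevenly over the 3 clusters. In the gamma cluster 11 of 22 members were lower in D2 and 2 higher. The beta cluster had 8 of 22 members higher and 0 lower (0 also at an unadjusted p below 0.05 and by DESeq2), and the alpha cluster had 4 of 14 higher and 2 lower. In all, 27 of the 58 members were called (46.6%), where 18.3% of all genes were called in either direction. Higher calls made up 8.50% of all genes and lower calls 9.83%. Where the mean count was 100 or more, a level that 56 of the members reached, 23.8% of genes were called, 10.5% as higher and 13.2% as lower in D2. Higher calls made up 36.4% of the beta members and 28.6% of the alpha members, and lower calls 14.3% of the alpha members. The members sit side by side on 1 haplotype in each inbred strain, so they are not independent of each other.

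**Figure D1:**
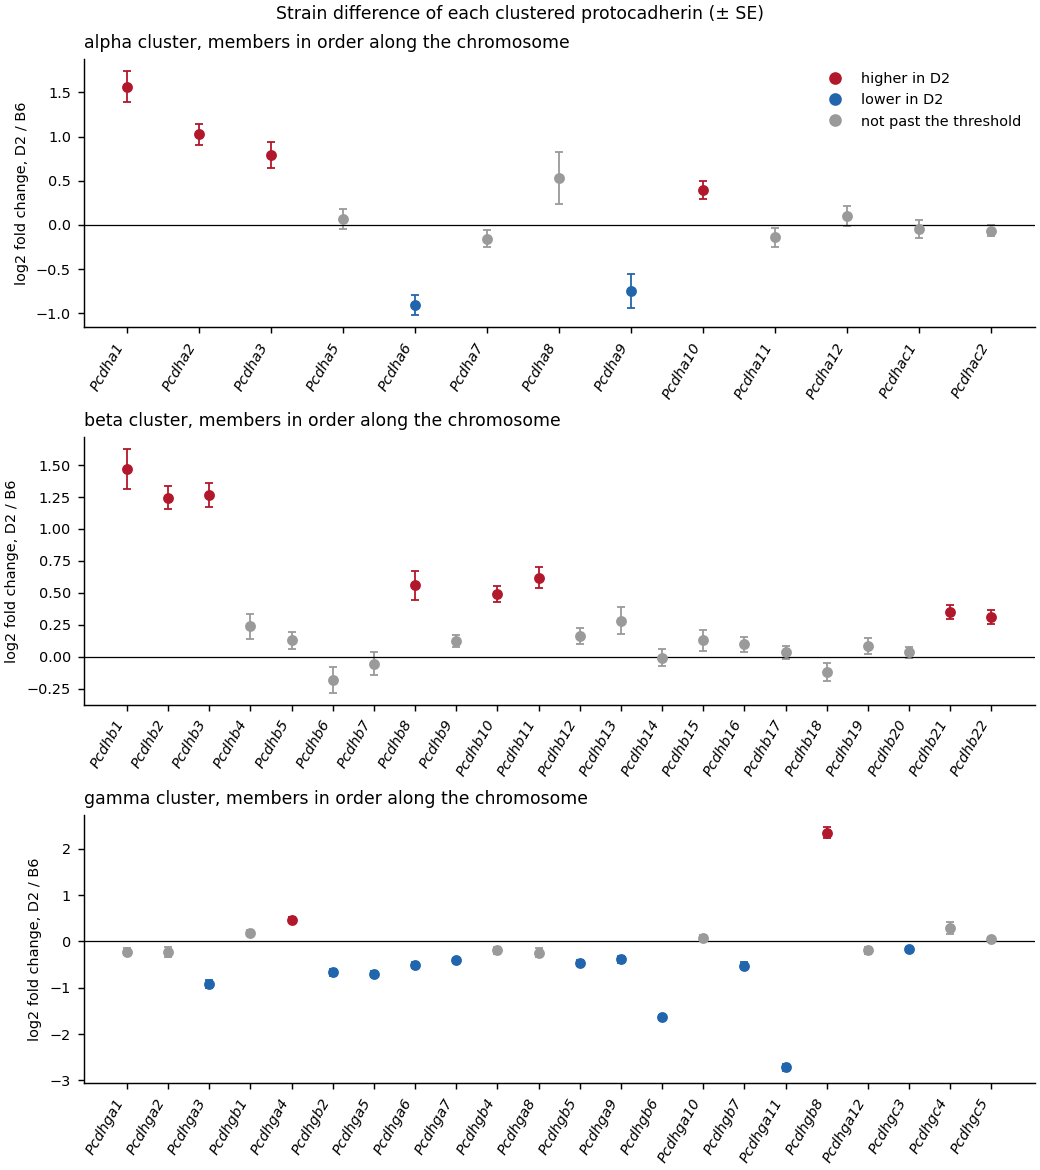
Log2 fold change of D2 over B6 (vertical axis, ± SE from edgeR) for the members of the alpha, beta and gamma clusters in their order along the chromosome, with red for members higher in D2, blue for members lower in D2 and grey for members not past the threshold. Pcdha4, with a mean under 10 counts, is not drawn. The first 3 alpha members drawn and the first 3 beta members lie between 0.79 and 1.57, and the gamma cluster spans from -2.72 for Pcdhga11 to 2.35 for Pcdhgb8, its neighbour.

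The gamma cluster held the largest differences. Its A and B members are 2 families of variable exons that alternate along the cluster, and both were lower in D2. The summed level of the 12 A members was 182 ± 6.60 CPM (SD, n = 5) in B6 and 132 ± 4.81 CPM (SD, n = 5) in D2, which is 27.3% less. For the 7 B members the sums were 71.2 ± 3.06 CPM (SD, n = 5) and 50.4 ± 2.17 CPM (SD, n = 5), or 29.2% less. No D2 mouse reached the lowest B6 mouse in either sum. A large part of both rested on a single member. Without Pcdhga11, the A sum was 159 ± 6.52 and 129 ± 4.93 CPM (SD, n = 5 each), 19.1% less and still without overlap. Without Pcdhgb6, the B sum was 47.5 ± 2.06 and 42.8 ± 2.03 CPM (SD, n = 5 each), 9.82% less, and the strains overlapped. The 3 C-type members together stood at 219 ± 5.29 CPM (SD, n = 5) in B6 and 218 ± 7.65 CPM (SD, n = 5) in D2, and the strains overlapped.

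Pcdhga11, an A member, had the largest change of all members. Its levels in the 5 B6 mice were 22.4, 22.3, 22.5, 23.5 and 23.2 CPM, and in the 5 D2 mice 3.61, 4.09, 3.02, 3.10 and 3.50 CPM. The highest D2 mouse was far below the lowest B6 mouse, and the spread within a strain was small. The mean was 22.8 ± 0.54 CPM (SD, n = 5) in B6 and 3.46 ± 0.43 CPM (SD, n = 5) in D2, 6.58-fold lower in D2, with a log2 fold change of -2.72 (SE 0.08, edgeR adjusted p = 2.6e-10). By level per kb it was the fourth of the 22 gamma members in B6 and number 21 in D2. Its raw counts lay between 345 and 2507, so depth did not limit the difference.

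Pcdhgb8, the B member that follows Pcdhga11 on the chromosome, went the other way. The B6 mice had 1.28, 1.24, 0.98, 1.33 and 0.92 CPM, and the D2 mice 6.48, 6.50, 4.86, 5.75 and 5.76 CPM. The groups did not overlap, and here the D2 mice were the high ones. The means were 1.15 ± 0.19 CPM (SD, n = 5) and 5.87 ± 0.67 CPM (SD, n = 5), a 5.10-fold higher level in D2 (log2 fold change 2.35, SE 0.12, edgeR adjusted p = 3.3e-08). It had the lowest level per kb of the gamma members in B6, at 0.46 CPM per kb, and stood at 2.35 CPM per kb in D2.

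Pcdhgb6, a B member 4 places before Pcdhgb8, was lower in D2. Its values were 25.6, 24.3, 22.6, 22.7 and 23.5 CPM in B6 and 7.49, 7.85, 7.45, 7.67 and 7.54 CPM in D2. The D2 mice were nearly equal, at 7.60 ± 0.16 CPM (SD, n = 5), and all lay below the B6 mice, at 23.7 ± 1.23 CPM (SD, n = 5). The change was 3.12-fold (log2 fold change -1.64, SE 0.05, edgeR adjusted p = 2.6e-10). The pair of members between Pcdhgb6 and Pcdhga11 did not move with them to the same extent. Pcdhga10 had 14.1 ± 0.82 CPM (SD, n = 5) in B6 and 14.9 ± 0.80 CPM (SD, n = 5) in D2 (log2 fold change 0.08, SE 0.05, edgeR adjusted p = 0.36), and Pcdhgb7 had 12.9 ± 0.95 and 9.0 ± 0.85 CPM (SD, n = 5 each), a log2 fold change of -0.52 (SE 0.07, edgeR adjusted p = 2.4e-04).

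Against all genes, these changes were uncommon in size. Of the 15388 genes whose mean count was 100 or more, 413 (2.68%) were called with an absolute log2 fold change of at least 1, and 8 of the members were among them. For a log2 fold change of at least 2 the figures were 173 genes (1.12%) and 2 members, Pcdhga11 and Pcdhgb8. Ranked by absolute change among the 3657 called genes of that level, Pcdhga11 was number 126, Pcdhgb8 number 144 and Pcdhgb6 number 217. Without these 3 members, the other 19 gamma members had a median log2 fold change of -0.23, against -0.24 for all 22 and 0.00 for all genes. Their summed level was 9.54% lower in D2, against 15.1% lower for all 22.

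Among the other gamma members, Pcdhga3, Pcdhga5 and Pcdhgb2 were lower in D2. Pcdhga3 had 17.8, 18.9, 20.8, 19.0 and 21.1 CPM in B6 and 9.91, 12.3, 9.30, 10.7 and 9.50 CPM in D2, a log2 fold change of -0.92 (SE 0.08, edgeR adjusted p = 2.9e-06). The strains did not overlap for it. Pcdhga5 fell from 13.7 ± 1.33 to 8.37 ± 0.52 CPM (SD, n = 5 each), and Pcdhgb2 from 10.1 ± 1.09 to 6.38 ± 0.18 CPM (SD, n = 5 each), with log2 fold changes of -0.71 (edgeR adjusted p = 1.4e-05) and -0.66 (edgeR adjusted p = 2.8e-05). Pcdhga4 lies directly before Pcdhgb2 and rose instead, from 10.2 ± 0.44 to 14.1 ± 0.88 CPM (SD, n = 5 each; log2 fold change 0.47, SE 0.06, edgeR adjusted p = 5.1e-05). The remaining lower members were Pcdhga6, Pcdhga7, Pcdhga9, Pcdhgb5 and Pcdhgb7, at log2 fold changes of -0.52 to -0.38. Pcdhga1, Pcdhga2, Pcdhga8, Pcdhga12, Pcdhgb1 and Pcdhgb4 were not called, with log2 fold changes of -0.24 to 0.18. The strains did not overlap for 13 of the 22 gamma members (59.1%), the called ones, where the CPM of 16.0% of all genes did not overlap.

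**Figure D2:**
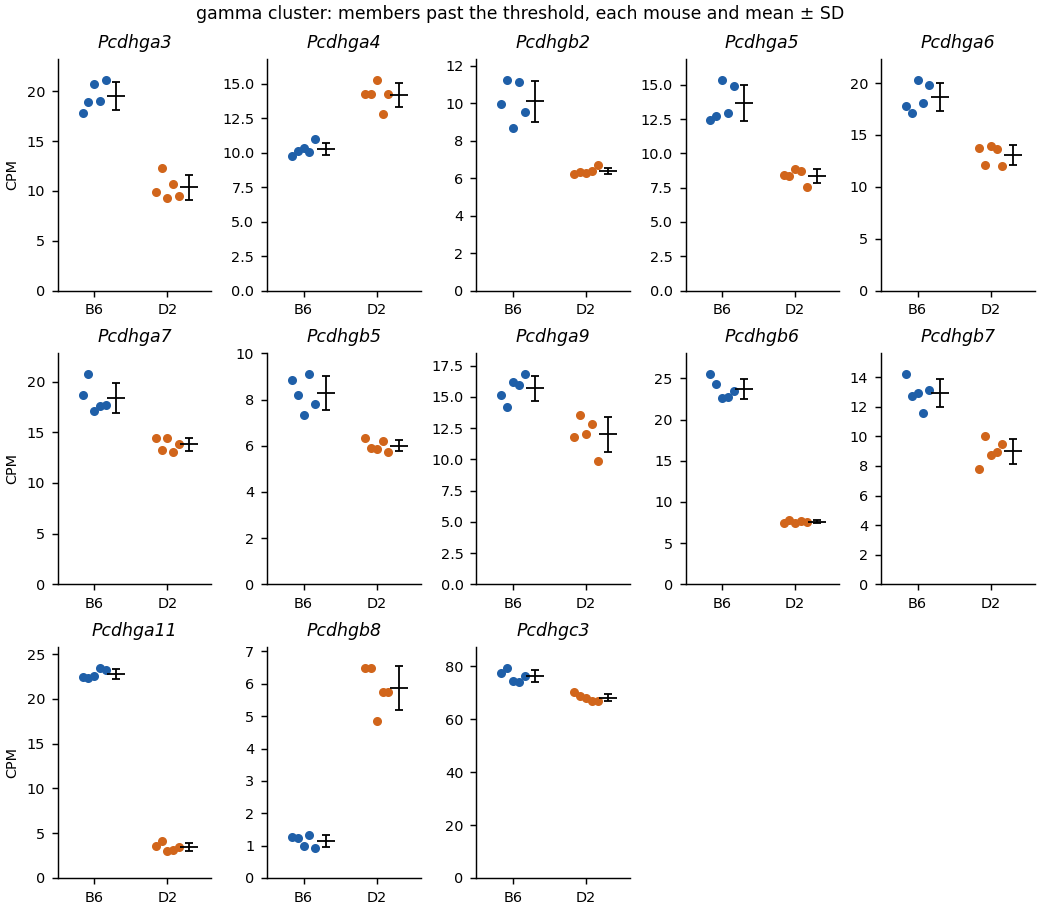
CPM (vertical axis, from 0) of the 13 gamma members past the threshold in each of the 5 B6 (blue) and 5 D2 (orange) mice, with the mean ± SD in black, in chromosome order. In every panel the mice of the strains form separate groups, D2 above B6 for Pcdhga4 and Pcdhgb8 and below it for the other 11.

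A C-type member had the highest level per kb in both the alpha and the gamma cluster. Pcdhgc5 had the highest level per kb of the gamma cluster in both strains, at 27.1 CPM per kb in B6 and 28.0 CPM per kb in D2. Its values were 117, 117, 130, 132 and 137 CPM in B6 and 118, 125, 141, 137 and 131 CPM in D2. The strains overlapped over nearly their whole range (log2 fold change 0.04, SE 0.06, edgeR adjusted p = 0.69). Pcdhgc3, second per kb in both strains, was 76.3 ± 2.27 CPM (SD, n = 5) in B6 and 68.2 ± 1.38 CPM (SD, n = 5) in D2. Its difference was small but larger than the spread, as the highest D2 mouse (70.2 CPM) was below the lowest B6 mouse (74.0 CPM), with a log2 fold change of -0.16 (SE 0.03, edgeR adjusted p = 0.0023). Pcdhgc4, known for its role in the survival of interneurons, had 19.7, 18.6, 12.1, 15.4 and 13.6 CPM in B6 and 21.8, 17.5, 17.9, 21.0 and 18.6 CPM in D2. The lowest B6 values were in replicates 3 and 5, the mice with high cortical markers, and the difference was not called (log2 fold change 0.29, SE 0.12, edgeR adjusted p = 0.14). It was called with the cortical marker level as a covariate (log2 fold change 0.40) and without B6 replicate 1 (log2 fold change 0.38).

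In the alpha cluster, the first 3 members were higher in D2. Pcdha1 had 1.09, 0.93, 1.73, 1.52 and 1.84 CPM in the B6 mice and 3.98, 4.42, 3.98, 3.66 and 4.98 CPM in the D2 mice. All D2 mice were above the B6 mice, and the means of 1.42 ± 0.40 and 4.20 ± 0.52 CPM (SD, n = 5 each) differed 2.96-fold (log2 fold change 1.57, SE 0.17, edgeR adjusted p = 2.9e-05). Pcdha2 rose from 2.50 ± 0.46 to 5.08 ± 0.46 CPM (SD, n = 5 each), a log2 fold change of 1.02 (SE 0.12, edgeR adjusted p = 5.1e-05). Pcdha3 rose from 2.40 ± 0.62 to 4.16 ± 0.25 CPM (SD, n = 5 each), a log2 fold change of 0.79 (SE 0.15, edgeR adjusted p = 0.0021). Both kept the strains apart. Further along, Pcdha10 had 2.02, 2.01, 1.86, 1.92 and 2.45 CPM in B6 and 2.26, 2.79, 2.69, 2.97 and 2.78 CPM in D2. B6 replicate 5 was above the lowest D2 mouse, and the level in D2 was higher (log2 fold change 0.39, SE 0.10, edgeR adjusted p = 0.016).

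Pcdha6 and Pcdha9 were lower in D2. Pcdha6 had 3.76, 2.95, 3.99, 3.12 and 4.49 CPM in B6 and 1.89, 2.03, 1.89, 1.79 and 2.16 CPM in D2, without overlap (log2 fold change -0.91, SE 0.12, edgeR adjusted p = 1.1e-04). Pcdha9 had 3.26, 2.45, 4.68, 2.63 and 4.85 CPM in B6 and 2.05, 1.94, 1.89, 2.72 and 2.03 CPM in D2. Here D2 replicate 4 was above B6 replicates 2 and 4 (log2 fold change -0.75, SE 0.19, edgeR adjusted p = 0.017). The 2 highest B6 values were again in replicates 3 and 5. Without both of these mice the log2 fold change of Pcdha9 was -0.39 (edgeR adjusted p = 0.076), while that of Pcdha6 was -0.75 and those of Pcdha1, Pcdha2 and Pcdha3 were 1.83, 1.19 and 1.06.

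The sum over the 12 alpha members other than the C-types followed the same 2 B6 mice. It was 27.7, 25.3, 33.9, 25.1 and 36.6 CPM in B6 and 32.6, 34.7, 35.7, 34.9 and 35.5 CPM in D2. B6 replicates 3 and 5 lay within or above the range of the D2 mice, and the other 3 B6 mice lay below it. The count of called alpha members was 5 higher and 1 lower without these 2 mice, with Pcdha5 added and Pcdha9 lost. With the striatal marker level as a covariate 2 alpha members were higher, Pcdha3 (log2 fold change 0.46) and Pcdha10 (log2 fold change 0.31) no longer being called, and 2 were lower.

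Pcdhac2 led the alpha members. It took 50.8% of the summed alpha level in B6 and 45.9% in D2, and per kb it was first in both strains, at 10.5 CPM per kb in B6. Its values were 32.5, 31.9, 35.2, 29.5 and 35.4 CPM in B6 and 32.4, 27.8, 33.4, 31.8 and 31.9 CPM in D2, which overlapped (log2 fold change -0.06, SE 0.06, edgeR adjusted p = 0.55). Pcdhac1, the other C-type member, had 2.39 ± 0.34 and 2.31 ± 0.13 CPM (SD, n = 5 each; log2 fold change -0.05, SE 0.10, edgeR adjusted p = 0.83). Pcdha5, Pcdha7, Pcdha8, Pcdha11 and Pcdha12 were not called, at log2 fold changes of -0.16 to 0.53, and the widest of them, Pcdha8, had only 16 to 72 counts. Pcdha4 had a mean under 10 counts, and its first exon is also covered by Pcdha4b.

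**Figure D3:**
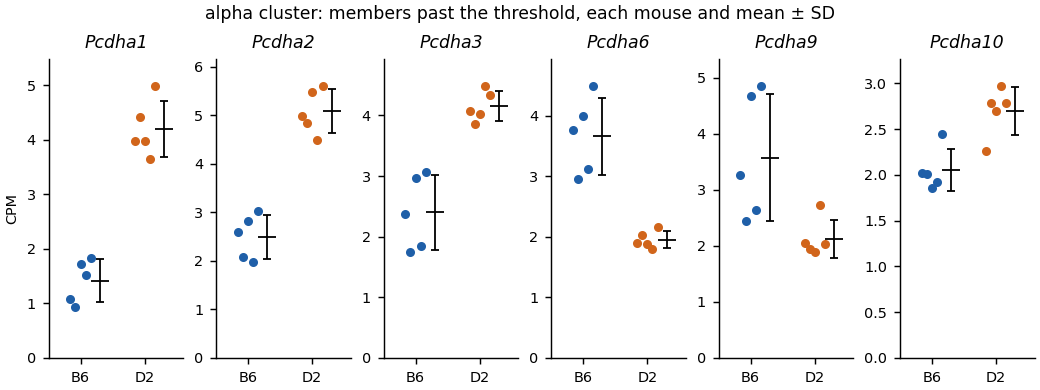
CPM (vertical axis, from 0) of the 6 alpha members past the threshold in each of the 5 B6 (blue) and 5 D2 (orange) mice, with the mean ± SD in black. The strains are apart for Pcdha1, Pcdha2, Pcdha3 and Pcdha6 and overlap for Pcdha9 and Pcdha10.

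The beta cluster was higher in D2 where it differed, most of all at its first 3 members. Pcdhb1 had 1.08, 0.62, 0.67, 0.82 and 0.72 CPM in B6 and 1.78, 2.31, 2.01, 2.54 and 2.25 CPM in D2, a log2 fold change of 1.47 (SE 0.16, edgeR adjusted p = 2.0e-05). Pcdhb2 had 3.15, 2.48, 2.42, 2.34 and 2.60 CPM in B6 and 5.82, 5.98, 6.65, 6.08 and 6.29 CPM in D2, a log2 fold change of 1.25 (SE 0.09, edgeR adjusted p = 4.0e-07). For Pcdhb3 the levels were 5.40, 5.76, 4.99, 6.55 and 4.75 CPM in B6 and 13.3, 12.98, 15.2, 12.6 and 11.8 CPM in D2, a log2 fold change of 1.26 (SE 0.09, edgeR adjusted p = 6.7e-07). For all 3 the lowest D2 mouse was above the highest B6 mouse, and D2 was higher by 2.77-fold, 2.37-fold and 2.40-fold in the means. Per kb, Pcdhb3 stood at number 18 of the 22 beta members in B6 and number 6 in D2, while Pcdhb1 was the lowest in both strains.

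Pcdhb11 and Pcdhb8 followed in size. Pcdhb11 rose from 6.61 ± 0.62 to 10.2 ± 0.83 CPM (SD, n = 5 each; log2 fold change 0.62, SE 0.08, edgeR adjusted p = 9.8e-05), without overlap. Pcdhb8 rose from 4.53 ± 0.80 to 6.68 ± 0.62 CPM (SD, n = 5 each; log2 fold change 0.56, SE 0.11, edgeR adjusted p = 0.0036), and its highest B6 mouse, at 5.75 CPM, was just above its lowest D2 mouse, at 5.73 CPM. The other 3 called beta members, Pcdhb10, Pcdhb21 and Pcdhb22, were higher in D2 at log2 fold changes of 0.49, 0.35 and 0.31, and the strains were apart for each.

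The other 14 beta members were not called, with log2 fold changes of -0.18 to 0.28. Pcdhb20, first per kb in both strains at 5.05 and 5.17 CPM per kb, had 18.0 ± 0.32 CPM (SD, n = 5) in B6 and 18.4 ± 0.91 CPM (SD, n = 5) in D2. Pcdhb17, the beta member with the highest CPM in B6, had 21.2 ± 1.23 and 21.8 ± 1.14 CPM (SD, n = 5 each), and Pcdhb14 was the closest to 0, at 12.8 ± 1.18 and 12.7 ± 0.75 CPM (SD, n = 5 each). The median over the 22 beta members was a log2 fold change of 0.15. Their summed level was 214 ± 7.53 CPM (SD, n = 5) in B6 and 249 ± 9.20 CPM (SD, n = 5) in D2, 16.0% more, with the lowest D2 mouse at 239 CPM above the highest B6 mouse at 226 CPM.

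**Figure D4:**
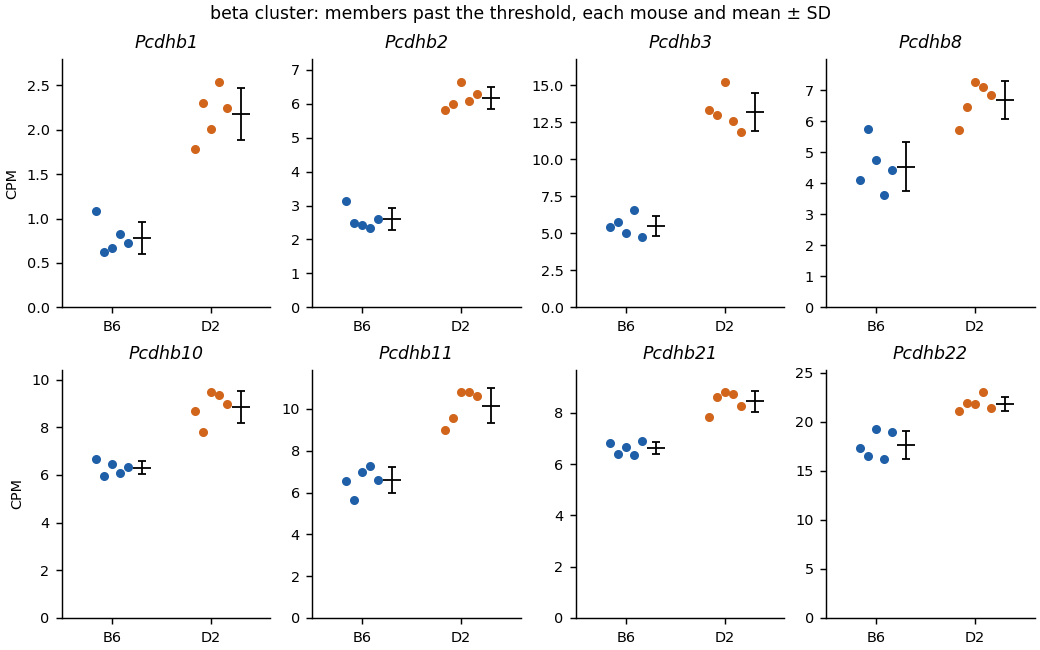
CPM (vertical axis, from 0) of the 8 beta members past the threshold in each of the 5 B6 (blue) and 5 D2 (orange) mice, with the mean ± SD in black. The D2 mean is above the B6 mean in every panel, and Pcdhb8 is the only one in which 1 B6 mouse reaches the D2 mice.

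Summed over the 3 clusters, the members of opposite direction partly offset each other. The summed level of all 58 members was 751 ± 16.5 CPM (SD, n = 5) in B6 and 717 ± 19.7 CPM (SD, n = 5) in D2, 4.45% less, and the strains overlapped. The alpha sum was 65.0 ± 7.79 and 68.5 ± 2.61 CPM (SD, n = 5 each), and the gamma sum was 472 ± 9.03 and 400 ± 9.56 CPM (SD, n = 5 each). The plot of sums by group shows which groups of members were apart.

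**Figure D5:**
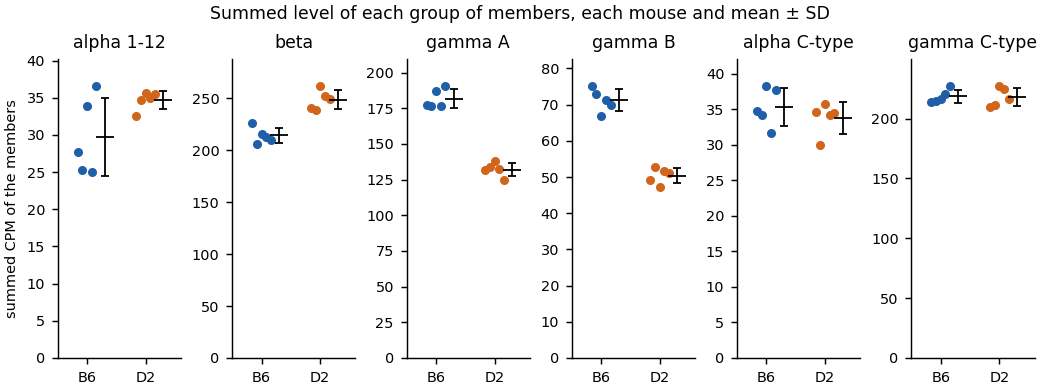
Summed CPM (vertical axis, from 0) of the alpha members 1 to 12, the beta members, the gamma A and B members and the C-type members of the alpha and gamma clusters in each of the 5 B6 (blue) and 5 D2 (orange) mice, with the mean ± SD in black. The strains are apart for beta, gamma A and gamma B, and overlap for alpha 1 to 12 and for both C-type groups.

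Among members whose mean count was 100 or more, the median coefficient of variation between the mice of a strain was 17.0% over 12 alpha members, 8.80% over 22 beta members and 7.34% over 22 gamma members in B6, and 8.67%, 6.39% and 7.13% in D2. For all genes whose mean count was 100 or more the medians were 6.80% in B6 and 5.30% in D2. These medians were not matched for depth. Apart from Pcdhac2, these alpha members had mean counts of only 209 to 627, and counting noise was not separated from variation between mice. Without B6 replicates 3 and 5, the mice with high cortical markers, the B6 medians were 9.12% for alpha, 9.58% for beta, 4.47% for gamma and 4.95% for all such genes.

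Members of a cluster resemble each other, which bears on how well reads can be assigned. Likeness was measured in the reference genome only, which is that of the B6 strain. Whether D2 reads are lost or assigned to another member was not tested. Of the 100-base windows of a member's own exons, the share also found exactly elsewhere in the clusters was at most 12.2% in the alpha cluster (Pcdha6), 2.30% in the beta cluster (Pcdhb6) and 9.74% in the gamma cluster (Pcdhgb2). It was 0% for Pcdhga11, Pcdhga3, Pcdhb1, Pcdhb2, Pcdhb3 and the 5 C-type members, 2.54% for Pcdhgb6, 4.71% for Pcdhgb8 and 7.07% for Pcdha1. The closest other member to Pcdhga11 was Pcdhga12, at 73.2% identity of the aligned bases, and that to Pcdha1 was Pcdha2, at 79.5%.

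Genes on the opposite strand overlap part of the members. Gm26672, a long noncoding RNA on the reverse strand across the stretch from Pcdhgb6 to the start of Pcdhga12, had 3.27 ± 0.20 CPM (SD, n = 5) in B6 and 1.96 ± 0.33 CPM (SD, n = 5) in D2 (log2 fold change -0.74, SE 0.11, edgeR adjusted p = 4.9e-04). Whether the counting used the strand is not given in the sources used here. Of the 2649 exon bases of Pcdhga11 that no gene on its own strand shares, 1256 are free of genes on either strand, and for Pcdhga10 that number is 0, although it had 1199 to 1861 counts.

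Genes around the clusters were called at about the share of all genes. Within 500 kb of the clusters and between them the table held 58 other genes. D2 was higher for 7 of them and lower for 6, which makes 22.4% called, where 18.3% of all genes were called, and the 29 whose mean count was 100 or more had log2 fold changes of -0.74 to 0.69. Before the alpha cluster, 3 of 22 were higher and 4 lower. Of these, Cd14, a receptor for bacterial lipopolysaccharide, was higher (log2 fold change 0.69, edgeR adjusted p = 8.0e-05), as was Hars1, the histidyl-tRNA synthetase (0.27, edgeR adjusted p = 2.9e-05), while Dnd1 (-0.70), Tmco6 (-0.30) and Hbegf, a growth factor (-0.26), were lower. Between the members, 4 of 21 were higher and 2 lower. Only 3 of these 21 had a mean count of 100 or more, and the 4 higher ones had mean counts of 5.8 to 53.8. After the gamma cluster 0 of 15 were called by edgeR, against 1 by DESeq2 and 3 at an unadjusted p below 0.05. Those 15 had a median log2 fold change of 0.00.

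Of 17 genes that act on promoter choice, 2 were higher in D2 (11.8%, where 8.50% of all genes were higher), the zinc finger protein gene Wiz (log2 fold change 0.17, SE 0.04, edgeR adjusted p = 0.0065) and the cohesin loader gene Mau2 (0.15, SE 0.03, edgeR adjusted p = 0.0021), and 0 were lower (0 also at an unadjusted p below 0.05 and by DESeq2). Without B6 replicate 1, 4 were higher. Ctcf had 76.8 ± 1.83 and 74.0 ± 1.59 CPM (SD, n = 5 each), a log2 fold change of -0.05 (edgeR adjusted p = 0.25). The median of the list was 0.04. Of 15 genes for binding partners and enzymes of the clustered protocadherins, 0 were called by edgeR or DESeq2, where edgeR called 18.3% of all genes (1 higher and 1 lower at an unadjusted p below 0.05), with a median of 0.00. Of 11 protocadherins outside the clusters, 2 were lower in D2 (18.2%, where 9.83% of all genes and 13.2% of those with a mean count of 100 or more were lower), Pcdh17 (-0.24, edgeR adjusted p = 0.034) and Pcdh20 (-0.37, edgeR adjusted p = 0.043), 0 were higher (1 at an unadjusted p below 0.05 and 0 by DESeq2), and the median was 0.08. Neither lower call held without B6 replicate 3, B6 replicate 5, D2 replicate 2 or D2 replicate 5.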

How the data were processed

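A poly-A library was sequenced from the NAc of each of 5 B6 and 5 D2 males. The authors used fastp for trimming, STAR 2.7.10b for alignment of both strains to the Ensembl GRCm39 genome, SAMtools 1.6 for sorting and featureCounts for counting, whose strand and overlap options are not given in the sources used here. The deposited table holds raw counts, and genes whose median was 0 were left out of it by the authors (the lowest median was 0.5). Groups came from the sample labels. The p-values set the strain difference against the spread between these mice. B6 replicates 3 and 5 were the most alike pair within a strain, with a mean chi-square between their counts of 4.89 per gene. The next pair, D2 replicates 3 and 5, was at 17.5, and either B6 mouse was at 85.5 to 119 against the other B6 mice. Both were fitted as separate mice, as labelled, so B6 may hold fewer than 5 independent libraries. The cause of the likeness was not tested.

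Gene names, positions and exon bases came from the GENCODE M39 annotation of GRCm39, which is not the release the authors used. It held 29519 of the 29883 identifiers. Counts were fitted with edgeR 4.0.16 (TMM, quasi-likelihood F test, two-sided, strain as the only factor, no further filter) in R 4.3.3, with Benjamini-Hochberg adjustment over all genes. The standard error was taken as the size of the log2 fold change over the root of the F statistic. The fit was tested on simulated data. Windows of 100 bases and BLAST 2.17.0 gave the likeness of members, and other steps used Python 3.11.15 with pandas 2.3.3.

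The members and the gene lists were chosen with earlier results of these data known. The genes described were set by a rule: in each cluster up to 5 called members in each direction with the largest change and a mean of at least 100 counts, the members with the highest mean count and the highest level per kb, the C-type members, the uncalled member nearest to 0, up to 4 called genes of each list, Ctcf, and neighbours with a mean of at least 100 counts. Other members were named after their values were seen. For the 26 members under this rule, a two-sided exact permutation test over the 252 assignments of mice gave its smallest possible p, 0.0079, for 16. These are the members whose strains did not overlap, for which that p is fixed. Most members under the rule were taken for their calls in the same data, so the test adds no separate support. Alternatives were DESeq2 1.42.0, its size factors, total counts, upper-quartile normalization, filterByExpr, at least 10 counts in every sample, the replicate number as a block, cortical or striatal marker levels as a covariate, an adjusted p of 0.01 and each mouse left out. Leaving out B6 replicates 3 and 5 together was added after seeing the data. The number of per-mouse columns left unused was 0. Marker genes for interneurons, astrocytes, oligodendrocyte precursors, microglia, endothelium, choroid plexus and ependyma were also read, 10 lists and 62 genes in all. In D2, 1 of 6 astrocyte markers was higher (16.7%) and 2 lower (33.3%), and 2 of 5 precursor markers were lower (40.0%). Of 6 microglia markers, 1 was higher and 1 lower (16.7% each). Of all genes 8.50% were higher and 9.83% lower, and at a mean count of 100 or more 10.5% and 13.2%. Of 5 choroid plexus markers, 1 was lower, Folr1, with a mean of only 2.7 counts, while the median log2 fold change of that list was 0.33. By edgeR, 0 of the 6 interneuron, 5 endothelium and 4 ependyma markers were called, against 1 of each list at an unadjusted p below 0.05 and by DESeq2.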

Additional observations from a re-analysis of the deposited data

Results flagged for a closer look

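A single mouse stood far from the other 4 of its strain for 4 of the named members, out of 52 groups of 5 mice examined, where chance flags about 1 in 20 groups. Pcdha9 was at 2.72 CPM in D2 replicate 4, against 1.89 to 2.05 CPM in the other D2 mice. Pcdha10 was at 2.45 CPM in B6 replicate 5, against 1.86 to 2.02 CPM in the other B6 mice. Pcdhac1 was at 2.98 CPM in B6 replicate 3, against 2.18 to 2.33 CPM. Pcdhac2 was at 27.8 CPM in D2 replicate 2, against 31.8 to 33.4 CPM. All 4 are alpha members, and both flagged B6 mice had high cortical markers. The part of the dissection in these values was not tested.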

How the results depend on the processing

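Of 399 refits of the called named members under 20 alternative fits and a stricter threshold, 394 kept direction and call, 5 lost the call and 0 changed sign. With DESeq2 the gamma calls were 3 higher and 13 lower. With 1 mouse left out, alpha calls stayed at 4 higher and 2 lower and beta calls at 8 higher, gamma calls were 2 to 3 higher and 11 to 13 lower, and the gamma median was -0.31 to -0.21. Without both B6 replicates 3 and 5, 1 alpha member was lower, the alpha median was 0.28, Pcdhac1 was at 0.064 and Pcdhac2 at 0.0064, and 0 of the protocadherins outside the clusters were lower. With the striatal marker level as a covariate, 5079 of all genes were called and 2 alpha members were higher. The medians were then -0.15 (alpha), 0.21 (beta) and -0.32 (gamma), and Pcdhgc5 was at -2.8e-04. The lists had 0 promoter choice genes higher, 1 partner higher and 1 lower, and 2 outside protocadherins higher and 4 lower. With the cortical marker level, 7777 of all 29883 genes were called, 3892 of them higher, in place of 5478 in the main fit. With that covariate, 4 gamma members and 11 neighbours were higher, and Pcdhb14 was at 0.0061. Of the lists, 1 partner was higher and 3 lower, and 4 outside protocadherins were higher and 4 lower. At an adjusted p of 0.01, 1 alpha member was lower, 1579 of all genes were higher and 1836 lower, 4 neighbours were higher and 0 outside protocadherins were lower. With total counts, 1 outside protocadherin was lower, Pcdhb14 was at 0.024, and 55.0% of all called genes were higher, against 46.4%. With at least 10 counts in every mouse, 4 neighbours were higher and 4532 genes were called in all. The cause of these shifts was not tested. Leaving out 1 mouse gave 2 to 4 promoter choice genes higher, 0 to 1 partners lower, and 0 to 1 outside protocadherins higher and 0 to 3 lower. It turned the sign of Pcdhac1 (-0.077 to 0.040), Pcdhb14 (-0.044 to 0.048) and Pcdhb17 (-0.0051 to 0.056), none of them called, among the named members.

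The deviations of mice with the same replicate number had correlations of -0.40 to 0.37 over 15388 genes. They were 0.37 for replicate 1 and 0.36 for replicate 3, whose best D2 match had the same number. For replicates 2, 4 and 5 they were -0.40, 0.03 and -0.29. Such mixed values cannot decide whether the numbers pair the mice, and the main fit used no pairing. With the replicate number as a block, 4731 genes were called in place of 5478, 12 gamma members were lower, 1 partner was lower, 1 outside protocadherin was higher and 4 neighbours were higher.

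Members with few counts limit the alpha cluster, where Pcdha8 had 16 to 72 counts. Alignment to the C57BL/6J genome, with 5 mice a strain and males only, limits every comparison, and alleles were not analysed here.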
